A study of Homo sapiens with 3 samples.

Results

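The transcripts described here were those of 9 receptor tyrosine kinases, AXL, EGFR, PDGFRA, PDGFRB, ERBB2, ERBB3, MET, KIT and DDR2, and of the neurotrophin receptor NGFR. They were picked by gene symbol, and all 10 of 10 were found among the 58037 genes of the count table. The 3 libraries came from A375, an established human melanoma cell line, after 24 h in serum-free DMEM (control), in young adipocyte secretome (YA) or in old adipocyte secretome (OA). A secretome was serum-free DMEM conditioned by adipocytes that had been differentiated in culture from subcutaneous preadipocytes of human donors with insulin, dexamethasone, indomethacin and IBMX. Control and treated cells thus all lacked serum, and control cells met no adipocyte product. There was 1 library per group and 1 cell line, so no difference below has a replicate check, and no test was made. Each interval is a 95% Clopper-Pearson counting interval of the ratio of 2 libraries, which covers counting error only and compares those libraries rather than the conditions.

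Receptor tyrosine kinases span the membrane, bind a growth factor or, for DDR2, collagen, and pass the signal on by phosphorylating themselves and their adaptors. NGFR has no kinase; it binds neurotrophins and marks a neural crest-like state of melanoma cells. AXL and EGFR are known as markers of a dedifferentiated, drug-tolerant melanoma state, whereas ERBB3 and KIT are receptors of the melanocyte lineage, and MET and the PDGF receptors are known routes of resistance to inhibitors of the MAPK pathway.

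In OA, MET, EGFR, ERBB2 and AXL transcripts were higher than in control, by 1.27-fold to 1.33-fold, while NGFR stood at 0.502 and ERBB3 at 0.643 of control. In YA each of these receptors was closer to control than in OA, with MET furthest from it at 0.796 of control. DDR2 was 1.34-fold higher in YA than in control, and the scarce PDGFRA was at 0.264 of control. Genes were compared where normalised counts averaged 20 or more over the libraries, which held for 9 of the 10 genes and not for KIT. A gene is called higher or lower here at a fold of at least 1.2, the cutoff of the study read as a linear fold, on normalised counts (read counts divided by a size factor for each library). By that call 1 of the 9 was higher in YA than in control, where 17.4% of all 14413 genes compared were higher, and 2 were lower, where 16.4% were. In OA against control 4 were higher and 4 lower, beside 21.1% and 21.5% of all genes. In YA against OA 4 were higher and 4 lower, beside 23.0% and 21.5%. The median log2 fold change over the 9 genes was -0.14 in YA, -0.26 in OA and -0.25 in YA against OA, beside -0.02, 0.01 and -0.01 over all genes. The 3 comparisons share their libraries, so they are not independent of one another.

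The promoters of 5 of the receptors are shown because they stand on both sides of the contrast between the secretomes: AXL, EGFR and MET were higher in OA than in YA, and DDR2 and PDGFRB were lower. Each line gives the 250 bases before the first RefSeq start of the gene (GRCh38.p14), on the strand of the gene, with the GC box GGGCGG or its complement CCGCCC in capitals. The windows lie at chr19:41218973-41219222 (AXL, plus strand), chr7:55018767-55019016 (EGFR, plus), chr7:116671946-116672195 (MET, plus), chr1:162630613-162630862 (DDR2, plus) and chr5:150155846-150156095 (PDGFRB, minus).
AXL: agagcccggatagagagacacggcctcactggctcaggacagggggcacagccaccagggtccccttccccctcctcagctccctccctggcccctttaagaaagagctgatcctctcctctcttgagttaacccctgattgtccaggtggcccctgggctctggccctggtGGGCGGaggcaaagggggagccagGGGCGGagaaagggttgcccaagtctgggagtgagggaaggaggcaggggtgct
EGFR: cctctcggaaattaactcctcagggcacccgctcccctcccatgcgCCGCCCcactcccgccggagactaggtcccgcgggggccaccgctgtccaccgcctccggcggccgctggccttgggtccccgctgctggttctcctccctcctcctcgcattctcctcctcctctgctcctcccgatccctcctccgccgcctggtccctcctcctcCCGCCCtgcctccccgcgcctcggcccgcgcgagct
MET: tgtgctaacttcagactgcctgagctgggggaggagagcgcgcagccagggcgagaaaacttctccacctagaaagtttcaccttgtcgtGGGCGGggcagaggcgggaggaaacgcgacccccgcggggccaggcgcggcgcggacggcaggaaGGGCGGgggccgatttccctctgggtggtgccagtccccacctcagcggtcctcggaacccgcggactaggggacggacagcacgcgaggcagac
DDR2: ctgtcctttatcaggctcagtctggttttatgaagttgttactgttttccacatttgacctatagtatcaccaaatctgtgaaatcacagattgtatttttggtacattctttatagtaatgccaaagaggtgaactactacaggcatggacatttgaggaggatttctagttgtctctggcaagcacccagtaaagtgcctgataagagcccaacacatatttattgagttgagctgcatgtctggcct
PDGFRB: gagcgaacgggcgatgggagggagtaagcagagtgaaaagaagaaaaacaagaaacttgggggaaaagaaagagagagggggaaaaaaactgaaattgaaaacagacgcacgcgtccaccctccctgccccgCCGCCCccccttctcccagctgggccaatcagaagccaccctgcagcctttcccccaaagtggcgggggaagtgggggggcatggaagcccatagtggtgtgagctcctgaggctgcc
The AXL, EGFR and MET windows held 2 GC boxes each and PDGFRB held 1, a motif present on either strand in 42.6% of 35116 windows of that length. PDGFRA was also higher in OA than in YA, and its windows, not printed, held 0 GC boxes (first) and 2 (second). The ERBB2 window, not printed either, held 0, and ERBB2, at 0.840 in YA over OA, did not reach the call. Whether GC boxes go with the side of the contrast was not tested. The DDR2 window had none, had no CpG and was 40% G and C, whereas the EGFR window had 25 CpG and was 73.6% G and C, MET had 24 CpG and 68.4%, AXL 4 CpG and 64.4%, and PDGFRB 9 CpG and 58.4%. DDR2 alone among these 5 held TATAAA, found in 10.7% of windows. None of the 5 held the AP-1 letters TGANTCA (6.57% of windows) or the E-box CATGTG (9.42%), and no matches overlapped in them. TGANTCA did occur in other windows of these receptors, 2 times in the second EGFR window and 1 time each in the ERBB2 window and the first PDGFRA window. CATGTG occurred 1 time each in the second AXL and second EGFR windows. TATAAA occurred 2 times in the second EGFR window and 1 time in the second DDR2 window. AXL and EGFR have 2 windows in RefSeq and DDR2 has 3; the data do not tell which start was used, and a match of letters is a description of the window only. NGFR and ERBB3 had no entry in the table used.

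Levels between genes are compared per length, as TPM computed from the counts and the summed exon length of GENCODE 29. AXL was the most abundant of the 10 in all 3 libraries, at 369.5 TPM (control), 327.3 (YA) and 462.5 (OA), and it ranked 2 among 59 receptors (58 receptor tyrosine kinases and NGFR), behind EPHA2. ERBB3 ranked 3 in control and YA and 4 in OA. MET ranked 4, 6 and 3 in control, YA and OA, NGFR 5, 5 and 7, and DDR2 6, 4 and 5. ERBB2, EGFR and PDGFRB formed a middle group between 10.7 and 57.2 TPM. PDGFRA stayed at or below 1.51 TPM and KIT was near absent. The sum over the 10 genes was 1079 TPM (control), 1045 (YA) and 1052 (OA), so the makeup of the set differed more between libraries than its total.

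**Figure D1:**
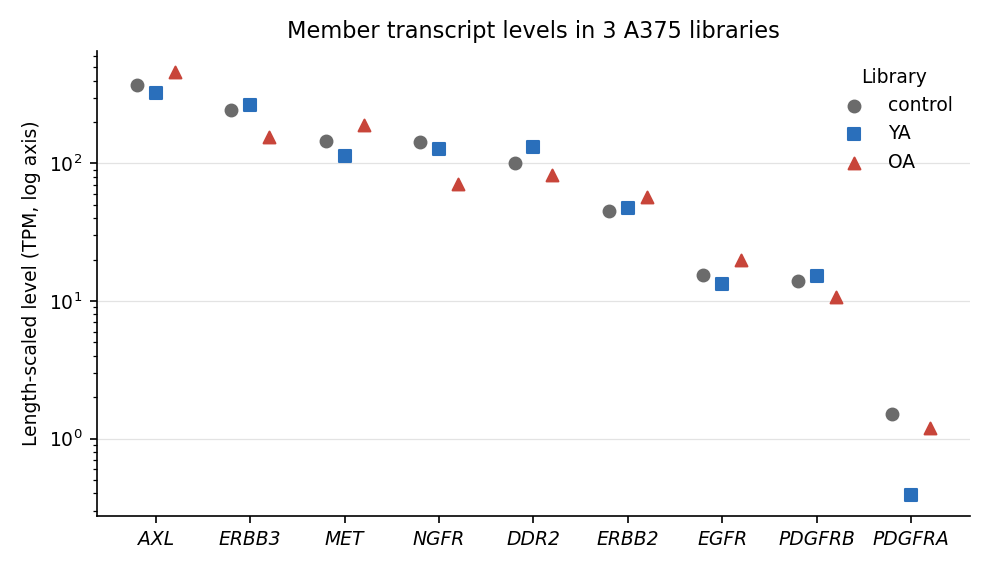
Length-scaled level (TPM, log axis) of each receptor that passed the filter on low counts, by library, 1 point per library; KIT, with at most 2 counts, is not drawn. AXL is at the top in all 3 libraries, and the OA point lies below the others for NGFR and ERBB3 and above them for AXL, MET and EGFR.

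EGFR of the ERBB family, which binds EGF, TGFA, AREG and HBEGF, lies at chr7:55019021-55211628 on the plus strand (ENSG00000146648.16; GENCODE 29, GRCh38, like all gene positions below). It had 993 counts (control), 872 (YA) and 1097 (OA). The OA library was the smallest of the 3, and the ratio of normalised counts was 1.32 for OA over control (interval 1.21 to 1.44), 0.881 for YA over control (0.803 to 0.966) and 0.669 for YA over OA (0.612 to 0.732). EGFR was thus highest in OA and lowest in YA, and the YA value did not reach the 1.2-fold call.

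ERBB2, the partner without a known ligand of its own, lies at chr17:39687914-39730426 on the plus strand (ENSG00000141736.13). Its counts were 2388 (control), 2580 (YA) and 2586 (OA). It was 1.29-fold higher in OA than in control (1.22 to 1.36) and 1.08-fold in YA (1.02 to 1.15). PGAP3 and MIEN1, on the opposite strand, together cover 7.41% of its exon bases, and without a stated use of strand those reads cannot be assigned with certainty.

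ERBB3, the neuregulin receptor whose own kinase is weak, lies at chr12:56076799-56103505 on the plus strand (ENSG00000065361.14). Its counts were 11471 (control), 12641 (YA) and 6195 (OA). The OA level was 0.643 of control (0.624 to 0.664), the YA level 1.11 of control (1.08 to 1.13), and YA was 1.72-fold above OA (1.67 to 1.77). ERBB3 was thus above control in YA and below it in OA, the reverse of EGFR.

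ERBB4, the remaining family member, had 5 counts in control and 3 in each secretome library. ERBB3 made up 80.3% of the summed ERBB transcript level in control, 81.4% for YA and 66.9% for OA. ERBB2 took 14.6%, 14.5% and 24.5%, and EGFR 5.02%, 4.05% and 8.56%. The family sum was 305.9 TPM (control), 328.2 (YA) and 233.6 (OA). Within a library, a ratio of read counts does not depend on scaling between libraries: EGFR reads per ERBB3 read were 0.0866 for the control library (0.0811 to 0.0924), 0.0690 for YA (0.0643 to 0.0739) and 0.177 for OA (0.166 to 0.189), a pair chosen after its values were seen.

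**Figure D2:**
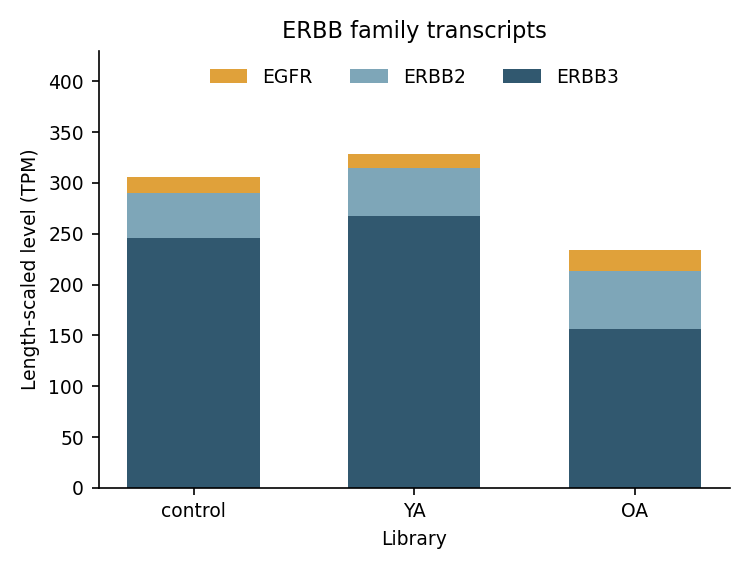
Summed length-scaled level (TPM, axis from 0) of the ERBB family in each library, stacked by receptor. ERBB3 fills most of each bar, and its part is smaller in OA, where the bar reaches 233.6 TPM beside 305.9 in control.

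AXL, the receptor for GAS6, lies at chr19:41219203-41261766 on the plus strand (ENSG00000167601.11). Its counts were 9837 (control), 8832 (YA) and 10449 (OA). OA was 1.27-fold above control (1.23 to 1.30), YA was at 0.901 of control (0.875 to 0.927), and YA was at 0.712 of OA (0.692 to 0.732). AXL supplied 94.0% of the summed level of its family (AXL, TYRO3 and MERTK) in control, 93.7% for YA and 96.5% for OA. Its ligand GAS6 had 156 counts (control), 162 (YA) and 167 (OA), a ratio of 1.28 for OA over control (1.02 to 1.60).

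MET, the receptor for HGF, lies at chr7:116672390-116798386 on the plus strand (ENSG00000105976.14). It had 5284 counts (control), 4195 (YA) and 5885 (OA). Among these receptors it was the one called in opposite directions in the 2 secretomes, lower in YA at 0.796 of control (0.764 to 0.829) and higher in OA at 1.33 (1.28 to 1.38). YA was at 0.600 of OA (0.577 to 0.625). HGF itself was scarce, with 5, 6 and 9 counts in control, YA and OA.

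NGFR lies at chr17:49495293-49515017 on the plus strand (ENSG00000064300.8). It had 3060 counts (control), 2774 (YA) and 1289 (OA). OA was at 0.502 of control (0.470 to 0.536), the lowest OA ratio of the 9 receptors compared here, whereas YA was at 0.909 (0.863 to 0.958), short of the call. YA was 1.81-fold above OA (1.70 to 1.94). Other annotated genes share 27.1% of its exon bases, which leaves its counts less certain than those of AXL, ERBB3 or MET. The number of AXL reads per NGFR read, again a pair chosen after its values were seen, was 3.21 for the control library (3.09 to 3.35), 3.18 for YA (3.05 to 3.32) and 8.11 for OA (7.65 to 8.60).

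DDR2, a collagen receptor, lies at chr1:162631373-162787400 on the plus strand (ENSG00000162733.16). Its counts were 5556 (control), 7448 (YA) and 3889 (OA). It was the only one of the 9 called higher in YA, at 1.34-fold (1.30 to 1.39). In OA it stood at 0.834 of control (0.800 to 0.869), a log2 fold change of -0.26, just short of the call, which it passed under edgeR TMM scaling and total-count scaling. YA was 1.61-fold above OA (1.55 to 1.68). DDR2 made up 57.3% of the summed DDR1 and DDR2 level in control, 67.9% for YA and 61.4% for OA.

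PDGFRB, which binds PDGF B and D chains, lies at chr5:150113837-150155872 on the minus strand (ENSG00000113721.13). It had 515 counts (control), 568 (YA) and 334 (OA). OA was at 0.773 of control (0.671 to 0.888), and YA was 1.43-fold above OA (1.25 to 1.64). YA over control was 1.11 (0.980 to 1.25), an interval that includes no change. PDGFRA, the receptor for PDGF A and C chains, lies at chr4:54229097-54298247 on the plus strand (ENSG00000134853.11) and had only 76, 20 and 51 counts in control, YA and OA. YA was at 0.264 of control (0.153 to 0.437) and at 0.330 of OA (0.186 to 0.564). OA over control was 0.799 (0.549 to 1.15), which counting error alone covers although it passes the 1.2-fold call. AC058822.1, annotated on the same strand, shares 15.8% of the PDGFRA exon bases. PDGFRB supplied 90.2%, 97.5% and 89.9% of the summed PDGF receptor level in control, YA and OA.

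KIT, the receptor for KITLG that melanocytes need, lies at chr4:54657918-54740715 on the plus strand (ENSG00000157404.15). It had 2 counts (control), 1 (YA) and 0 (OA). All 3 values are at or under 3 counts, the limit that a count of 0 allows, so no difference was detectable at this depth and no fold is given.

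**Figure D3:**
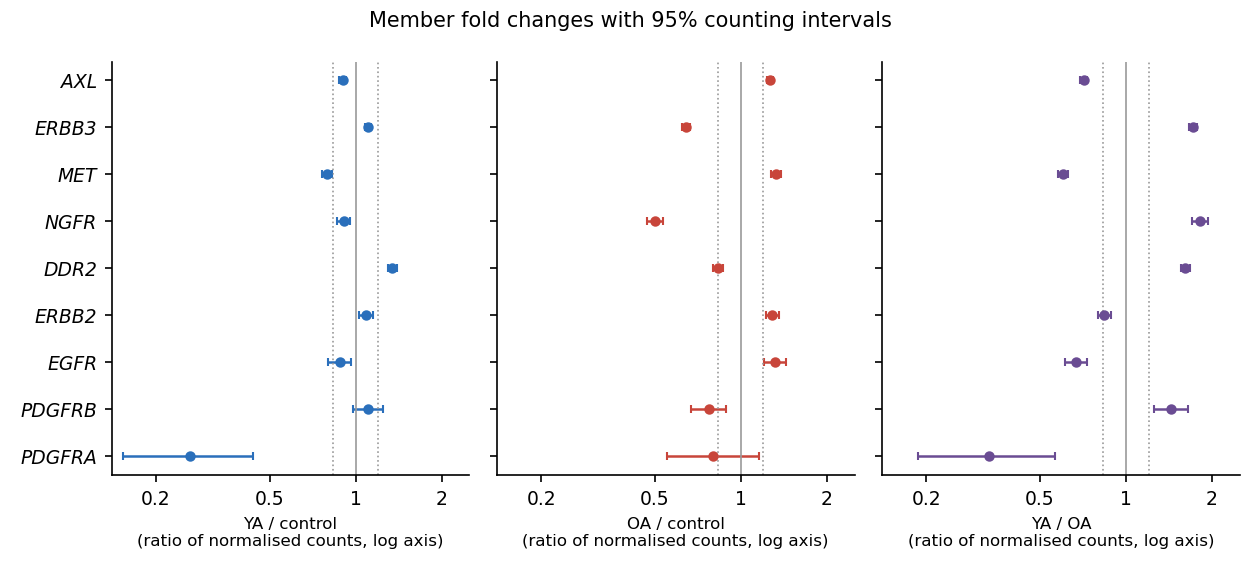
Ratio of normalised counts for each of the 9 receptors in the 3 comparisons (log axis), with 95% counting intervals; 1 library stands behind each side of a ratio, the solid line marks 1 and the dotted lines mark the 1.2-fold call. NGFR and ERBB3 lie furthest left of 1 in OA against control among the abundant receptors, and PDGFRA has the widest intervals.

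When the whole counting interval had to lie beyond 1.2-fold, 1 receptor was higher (DDR2) and 2 lower (MET and PDGFRA) in YA against control, where 6.03% and 4.44% of all genes were. For OA against control the numbers were 4 higher (MET, EGFR, ERBB2 and AXL) and 2 lower (NGFR and ERBB3), beside 9.04% and 9.08%. A 2-fold difference was passed only by PDGFRA, lower in YA against control, where 2.15% of all genes were higher and 0.971% lower by that much, and lower in YA against OA, where 4.43% were higher and 3.04% lower. In OA against control none of the 9 passed it, beside 2.86% higher and 3.71% lower. NGFR came nearest, at a log2 fold change of -0.994, and it passed under edgeR TMM scaling (-1.008) and total-count scaling (-1.001).

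The other receptor tyrosine kinases were the nearest set for comparison. Of 49, 29 passed the filter on low counts. In YA 3 of the 29 were called higher and 11 lower, with a median log2 fold change of -0.12. In OA 9 were higher and 15 lower, with a median of -0.30. Of all genes, 17.4% were higher and 16.4% lower in YA, and 21.1% and 21.5% in OA. The share called in this list and in each list below is set beside these values further on. FLT1, a VEGF receptor, stood beside PDGFRA in its pattern, with 417 counts (control), 138 (YA) and 258 (OA) and a YA ratio of 0.332 (0.272 to 0.403). The FGF receptor FGFR1 was placed like MET, with 1068, 705 and 1543 counts, at 0.662 of control in YA (0.601 to 0.729) and 1.72 in OA (1.59 to 1.86). ALK, at 41, 18 and 6 counts, was at 0.174 of control in OA (0.060 to 0.413), and the endothelial receptor TIE1, at 26, 29 and 117 counts, at 5.36 (3.48 to 8.55).

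Receptors for ephrins, ligands held on neighbouring cells, lay on both sides of control. EPHA2 had 12190, 12667 and 12842 counts in control, YA and OA, at 1.25 of control in OA (1.22 to 1.29), and EPHB2 had 771, 560 and 802, at 0.729 in YA and 1.24 in OA. EPHA3 had 2183, 1373 and 1083 counts, a YA ratio of 0.631, and EPHA7 had 680, 382 and 398, a YA ratio of 0.563. EPHB3 was at 0.413 of control in OA (366, 315 and 127 counts) and EPHB1 at 0.457 (339, 198 and 130 counts). The insulin receptor INSR was at 0.592 of control in OA (680, 646 and 338 counts) and the VEGF receptor KDR at 0.430 (180, 190 and 65 counts). NTRK2, a neurotrophin receptor with a kinase, was at 2.38 of control in OA (1.46 to 3.98) on 26, 43 and 52 counts.

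**Figure D4:**
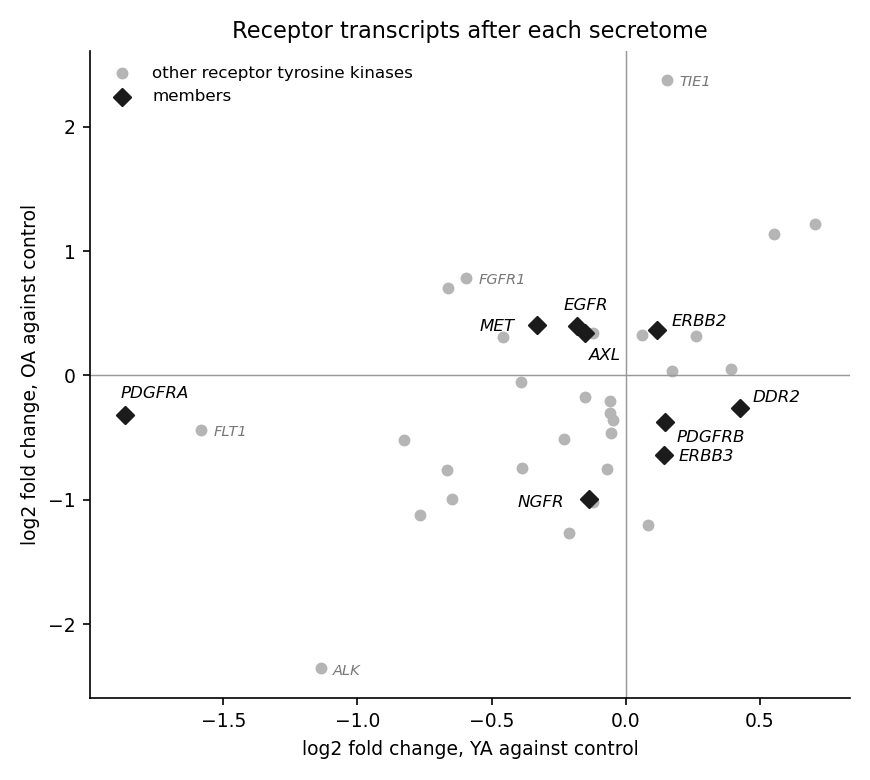
Log2 fold change against control in YA (horizontal) and OA (vertical) for the 9 receptors described (diamonds) and 29 other receptor tyrosine kinases (circles), 1 library per group. AXL, EGFR and MET lie in the upper left part, PDGFRB, ERBB3 and DDR2 in the lower right, and both axes share the control library.

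Ligands were set beside their receptors from a list of 28, of which 17 passed the filter. In YA 4 were called higher and 9 lower, with a median log2 fold change of -0.35, and in OA 11 were higher and 4 lower, with a median of 0.35. The medians over all genes were -0.02 and 0.01. Several of the ligands higher in OA were those of EGFR. AREG (amphiregulin) had 218 counts (control), 286 (YA) and 731 (OA), a ratio of 3.99 for OA over control (3.43 to 4.67). HBEGF had 235, 162 and 546 counts, at 2.77 in OA (2.37 to 3.24) and 0.691 in YA. TGFA, the most read ligand, had 7635, 7559 and 7769 counts and an OA ratio of 1.21 (1.17 to 1.25). EGF had 19, 14 and 34 counts and BTC 32, 34 and 52. Both EGFR and these ligands were thus highest in the OA library, while the neuregulin receptor ERBB3 was lowest there.

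The ERBB3 ligand NRG1 had 185 counts (control), 121 (YA) and 257 (OA), at 0.656 of control in YA and 1.66 in OA (1.37 to 2.01), the reverse order of its receptor. NRG2 had 256, 200 and 193 counts. BDNF, a ligand of NGFR and NTRK2, had 114, 79 and 253 counts, at 2.64 of control in OA (2.11 to 3.33), where NGFR was lowest.

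Among the PDGF chains, PDGFB had 219 counts (control), 191 (YA) and 43 (OA), at 0.234 of control in OA (0.165 to 0.326). PDGFD had 75, 39 and 14 counts, at 0.522 in YA and 0.222 in OA (0.116 to 0.397). Both chains bind PDGFRB, which was also lower in OA. PDGFA went the other way, with 145, 174 and 232 counts and an OA ratio of 1.91 (1.54 to 2.36), and PDGFC had 306, 197 and 313, at 0.646 in YA. KITLG had 109, 57 and 80 counts, at 0.525 of control in YA (0.374 to 0.729), in cells with hardly any KIT. Of the collagens that DDR2 can bind, COL5A1 had 593, 737 and 275 counts, at 0.552 of control in OA, and COL2A1 had 57, 38 and 13, at 0.272. COL1A1 had 75, 117 and 84 counts, at 1.56 of control in YA (1.16 to 2.12) and 1.33 in OA (0.966 to 1.85).

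**Figure D5:**
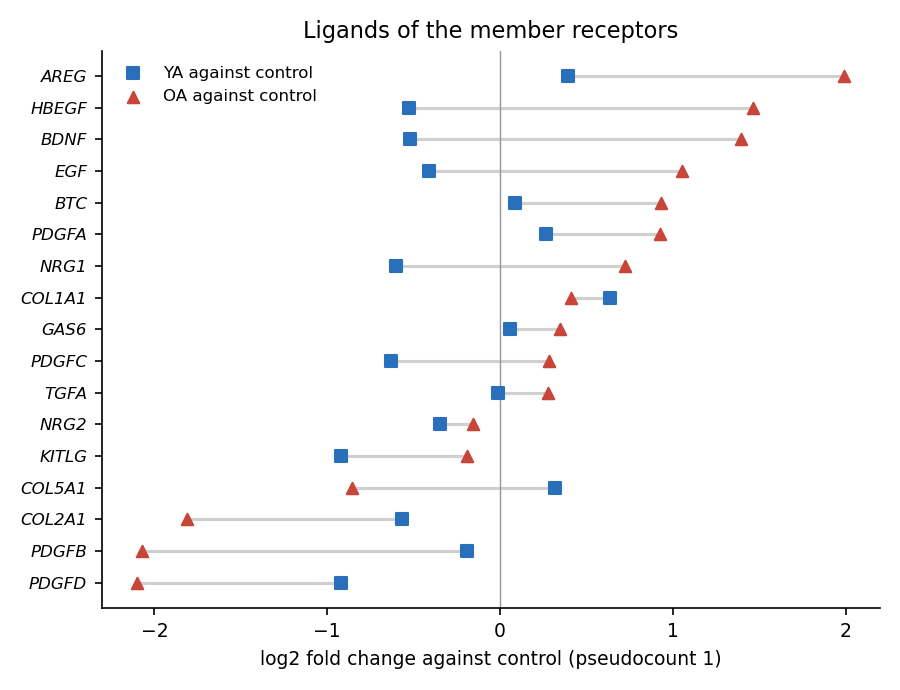
Log2 fold change against control (pseudocount 1) of the 17 ligand genes that passed the filter, in YA and OA, 1 point per library comparison. AREG, HBEGF and BDNF lie furthest right in OA and PDGFB and PDGFD furthest left.

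Of 12 co-receptors and partners of NGFR, 9 passed the filter, with 2 higher and 2 lower in YA and 1 higher and 4 lower in OA. SORCS1, of the sortilin family, had 1302 counts (control), 996 (YA) and 206 (OA) and stood at 0.188 of control in OA (0.162 to 0.218), a lower ratio than that of NGFR. SORT1 (sortilin) was at 0.746 of control in YA and 0.748 in OA, on 1864, 1386 and 1170 counts. RIPK2, a kinase that NGFR recruits, had 511, 552 and 663 counts, at 1.55 in OA. MAGED1 was at 1.26 in YA on 3431, 4310 and 3302 counts. RTN4R, the Nogo receptor, had 49, 67 and 24 counts.

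Negative regulators of receptor signalling comprised 26 genes, 22 of them above the filter. In YA 3 were higher and 4 lower, and in OA 5 were higher and 8 lower. Among those lower in OA were Sprouty genes, which are induced by MAPK signalling and restrain it: SPRY4 was at 0.244 of control (0.231 to 0.258) on 7526, 5431 and 1544 counts, SPRY1 at 0.391 on 463, 536 and 152, and SPRY2 at 0.676 on 6492, 6718 and 3685. CBLB, a ubiquitin ligase for receptors, was 2.09-fold higher in YA (1.82 to 2.40) on 310, 645 and 214 counts. The phosphatase PTPRJ was higher in both, at 1.28 in YA and 1.35 in OA, on 2521, 3212 and 2850 counts.

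Of 27 adaptors and proximal effectors, 23 passed the filter, with 2 higher and 4 lower in YA and 2 higher and 9 lower in OA. GRB10, an adaptor that restrains insulin and IGF receptors, had 236 counts (control), 538 (YA) and 155 (OA) and was 2.29-fold higher in YA (1.96 to 2.68). GAB2 was lower in both, at 0.751 in YA and 0.660 in OA, on 1155, 865 and 640 counts. The SHC adaptors parted in OA, with SHC4 at 1.61 of control (295, 318 and 398 counts) and SHC2 at 0.298 (48, 37 and 12 counts). RASA1, a RAS GTPase activating protein, was at 1.44 in OA on 1701, 1739 and 2060 counts.

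Proteases and regulators that shed receptors and ligands were all 15 above the filter, with 3 higher and 3 lower in YA and 5 higher and 1 lower in OA. ADAM19, which can release neuregulin, had 2650 counts (control), 1733 (YA) and 9008 (OA), at 0.656 in YA and 4.05 in OA (3.88 to 4.23). ADAM9 was at 1.27 and ADAM15 at 1.34 in OA. ADAM12 was the gene lower in OA, at a log2 fold change of -0.63, and it was lower in YA too. RHBDF1, which guides ADAM17 to the surface, was at 1.51 in YA on 1770, 2658 and 1322 counts. TIMP3, an inhibitor of ADAM17, was at 0.523 of control in YA on 44773, 23326 and 43920 counts.

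Of 14 transcription factors of melanoma cell states, 13 passed the filter, with 1 higher and 5 lower in YA and 4 higher and 5 lower in OA. The AP-1 subunits FOSL1 and FOSL2, known for their link with AXL-high and EGFR-high melanoma cells, were at 1.96 and 1.72 of control in OA, FOSL1 on 10048, 9388 and 16531 counts. ZEB1 was at 1.37 in OA, while JUN had 1554, 1049 and 788 counts in control, YA and OA. TFAP2B had 3177, 1913 and 132 counts, at 0.049 of control in OA, and NFATC2 had 5969, 4180 and 725, at 0.145. MITF, the melanocyte lineage factor, was at 0.628 in YA on 1221, 764 and 881 counts. SOX10, which drives ERBB3 in the melanocyte lineage, is listed at 0 in all 3 libraries. The span of SOX10 lies within that of POLR2F on the opposite strand, but POLR2F shares only 2.40% of the SOX10 exon bases. POLR2F had 76, 84 and 67 counts.

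The shares called in each list are set here beside the 17.4% higher and 16.4% lower of all genes in YA, and the 21.1% higher and 21.5% lower in OA. Of the 17 ligands, 23.5% were higher and 52.9% lower in YA, and 64.7% higher and 23.5% lower in OA. Of the 29 other receptor tyrosine kinases, 10.3% were higher and 37.9% lower in YA, and 31.0% higher and 51.7% lower in OA. When the whole counting interval had to lie beyond 1.2-fold, the ligands had 0 higher and 4 lower in YA and 6 higher and 4 lower in OA, and the other receptor tyrosine kinases 0 and 8 in YA and 4 and 12 in OA. By that rule 6.03% of all genes were higher and 4.44% lower in YA, and 9.04% and 9.08% in OA. NGFR partners were higher in 22.2% and lower in 22.2% in YA, and in 11.1% and 44.4% in OA. For the negative regulators the shares were 13.6% and 18.2% in YA, and 22.7% and 36.4% in OA. For the adaptors they were 8.70% and 17.4% in YA, and 8.70% and 39.1% in OA. For the shedding genes they were 20% and 20% in YA, and 33.3% and 6.67% in OA. For the transcription factors they were 7.69% and 38.5% in YA, and 30.8% and 38.5% in OA. The genes of a list were picked for their role with earlier results known, so these shares describe the lists and are no evidence that they stand apart.

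By their 2 fold changes against control, over 3 libraries, the genes nearest to each receptor were sought among genes whose normalised counts averaged 100 or more. NGFR lay nearest to STK32B (2620, 2339 and 1108 counts in control, YA and OA) and GNAS, with 13 genes within 0.1 on the log2 scale. ERBB3 lay nearest to HSPA12A and TMEM47 (28 genes within 0.1), DDR2 to CTD-2270P14.1 and IFRD1 (30 genes), and MET to CD59 and HSP90AB3P (44 genes). PDGFRA had no gene within 0.1, and the nearest were FLT1 at 0.31 and IGFBP3 at 0.37. More genes lay close to the other receptors. AXL had 174 genes within 0.1, SLBP and CD27-AS1 first, EGFR had 102, TCF4 and PODXL first, PDGFRB had 101, ZNF529 and SPATA6 first, and ERBB2 had 289, BCS1L and SLC39A14 first.

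The labelled cell type was read against its markers. Of 12 melanoma markers 5 passed the filter, among them CSPG4 (19441, 29002 and 16208 counts in control, YA and OA), PRAME and S100B, while SOX10, TYR and DCT were at or under 3 counts in all 3 libraries. MITF also passed the filter. The 0 of SOX10 is to be read with the overlap given above, and its cause was not tested. MLANA had 22, 18 and 16 counts, PMEL 2, 10 and 10, and TYRP1 6, 3 and 3. Since PDGFRA, PDGFRB and DDR2 are also receptors of fibroblasts, the markers of fibroblasts and preadipocytes are given beside them: the summed normalised count of the 12 was 1816 (control), 2296 (YA) and 2660 (OA). FBN1 alone gave 1509 (control), 1645 (YA) and 1390 (OA) of these sums and was called in neither secretome. Of the 6 that passed the filter, 5 were higher in YA and 4 in OA and none was lower, beside 17.4% and 21.1% of all genes higher. In YA the intervals of LUM (1.11 to 2.13), COL1A1 (1.16 to 2.12) and PDPN (0.748 to 5.12) were not wholly beyond 1.2-fold. The same held in OA for DCN (1.08 to 4.70) and COL1A1 (0.966 to 1.85). DCN had 13, 138 and 24 counts and COL6A3 145, 302 and 886, whereas COL1A2 and COL3A1 were at or under 3 counts in every library. The 12 adipocyte markers summed to 2255, 3195 and 2267 normalised counts. All 6 above the filter were higher in YA, beside 17.4% of all genes. PPARG at 1.23 (1.15 to 1.31) and GPD1 at 1.25 (0.811 to 1.95) had intervals not wholly beyond 1.2-fold. In OA 2 of the 6 were higher and 1 lower, LPL, with 353, 583 and 30 counts in control, YA and OA. FABP4, under the filter, had 16, 15 and 2 counts, and ADIPOQ, LEP and CIDEA were at or under 3 counts throughout. The endothelial list, which shares TIE1 with the receptors, summed to 343, 327 and 425, and the leukocyte list to 161, 166 and 117. What part RNA of these cell types had in the YA values of DDR2, PDGFRB and PDGFRA was not tested.

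Total counts were 21448195 (control), 21306558 (YA) and 18089008 (OA), and the size factors were 1.06, 1.06 and 0.891. At that depth the counting interval of ERBB3 or AXL spans a few percent of its ratio, and that of PDGFRA spans more than the 1.2-fold call on either side.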

How the data were processed

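Poly(A) libraries of A375 RNA were sequenced on a NovaSeq. The authors deposited raw counts per gene; the submitters' processing notes name STAR 2.5.1b, featureCounts, R 3.6.1 and hg38. The annotation release and the use of strand are not given in the sources used here, so reads of overlapping genes are uncertain. Normalised counts were the deposited counts over DESeq2 median-of-ratios factors (DESeq2 1.42.0, R 4.3.3), and fold changes were taken as log2((a + 1)/(b + 1)) for the 14413 genes that averaged 20 or more normalised counts, which held 99.7% of all counts. Of 58037 identifiers, 57433 matched GENCODE 29, which gave lengths and positions. With 1 library per group, edgeR's quasi-likelihood test could not be fitted. Intervals (95%, Clopper-Pearson) and the 3-count floor take in the counting error of reads alone. Amplified reads with no molecular identifier do not each stand for a molecule, so the intervals may be too narrow for molecules. The call was 1.2-fold, and the genes were counted by it in 3 comparisons. The scripts were tested on simulated data.

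The members and the 7 pathway lists were chosen with earlier results of these data known. Beyond the 10 members, the text names up to 3 genes per list, comparison and direction whose interval lies wholly beyond 1.2-fold and is furthest from it, direct ligands whatever their values, and the 2 genes nearest each member. EPHA2, EPHB2, ERBB4, POLR2F and the marker genes are named for reference, EPHB2 after its values were seen, and 1 ligand is not reported here. Promoter windows came from RefSeq. Python 3.11.15, numpy 2.4.6, pandas 2.3.3, scipy 1.17.1, matplotlib 3.10.9 and edgeR 4.0.16 (TMM scaling only) were used. Alternatives were TMM and total-count scaling, no filter and a stricter filter, another pseudocount, a 2-fold call, a call by the counting interval and, chosen after seeing the data, a correction for gene length and GC content.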

Additional observations from a re-analysis of the deposited data

How the results depend on the processing

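No paired analysis was possible because each group had 1 library. No fold change of a receptor changed sign under TMM scaling, total-count scaling, a pseudocount of 5 or the length and GC correction, an alternative chosen after seeing the data. Under a 2-fold call, receptors higher and lower in YA against control went from 1 and 2 to 0 and 1, in OA against control from 4 and 4 to 0 and 0, and in YA against OA from 4 and 4 to 0 and 1, because the call is stricter. NGFR in OA against control was beyond 2-fold under TMM scaling, total-count scaling and the length and GC correction (log2 fold change -1.04 in the last). Receptors lower in YA were also 1 with a minimum mean of 100, which removed PDGFRA, and 1 under the length and GC correction, where MET had a log2 fold change of -0.26. Receptors lower in OA were 2 when the counting interval had to pass the call, and 5 under TMM and total-count scaling, which added DDR2. The remaining counts of receptors stayed within 1.5 times those reported. Of the log2 fold changes of the receptors, 103 moved by less than counting error under these alternatives and 5 by more, all under the length and GC correction: AXL to -0.57 and ERBB2 to -0.34 in YA against OA, NGFR to -0.21 and MET to -0.26 in YA against control, and MET to 0.47 in OA against control. Of the counts for the 7 lists, 82 moved by more than 1.5 times and 212 did not. Depth limits KIT, PDGFRA and the ligands under about 100 counts, and the absence of replicates limits every fold.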
